A study of Mus musculus with 13 samples.

Results

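The BMP, TGF-beta and Nodal pathway was followed through the 35 genes that encode its ligands, receptors, Smads and Id targets, out of 20662 genes in 2 deposited tables of spermatogonial RNA. The 35 genes were taken by name, and all 35 were in the tables: 12 ligands and ligand-like antagonists, 12 receptors and co-receptors, 8 Smads and 3 Id genes. The series used C57BL/6 mice, 8 weeks old, and profiled germ cells of the testis by directional RNA-seq of total RNA after removal of ribosomal RNA. Of its 13 samples, the 2 analysed here are spermatogonia from testis, titled KIT_AGSC and THY1_AGSC, and both carry the same strain, age and tissue labels with no genotype or treatment named. The other 11 samples (spermatocytes, spermatids and mature sperm) were not analysed here. How cells were sorted, and how many animals went into a library, is not given in the sources used here. KIT is the stem cell factor receptor of differentiating spermatogonia, and THY1 is a surface antigen used to enrich undifferentiated spermatogonia.

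Ligands of this family bind a complex of type I and type II serine/threonine kinase receptors. The activated type I receptor phosphorylates Smad proteins: BMP receptors act on Smad1, Smad5 and Smad9, and TGF-beta, activin and Nodal receptors act on Smad2 and Smad3. These join the common partner Smad4 and enter the nucleus, where the Id genes, which encode inhibitors of basic helix-loop-helix transcription factors, are classical targets of the BMP arm. Smad6 and Smad7 are inhibitory Smads. In the testis, Bmp8a and Bmp8b are germ cell ligands needed for normal spermatogenesis in the mouse, activins and their receptors act on spermatogonia and Sertoli cells, and the Nodal co-receptor Tdgf1 (Cripto) and the antagonists Lefty1 and Lefty2 are best known from the embryo.

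Each group is 1 library, so no value has a replicate, no test between libraries is possible and no p-value is given. Every difference compares the KIT-labelled library with the THY1-labelled library. Their antigen transcripts ran against these labels: Kit was listed at 0 FPKM in the KIT-labelled library and at 36.7 FPKM in the THY1-labelled library, and Thy1 was at 78.8 FPKM in the KIT-labelled library and at 0.723 FPKM in the THY1-labelled library. In the deposited tables the column headings are also crossed, with Thy1 above the values of KIT_AGSC and Kit above those of THY1_AGSC. Titles are followed below, and all directions would turn if they were exchanged. FPKM scales the fragments of a gene by transcript length and by the total of the library. Summed over genes, the RNase P RNA Rpph1 alone accounted for 71.8% of all FPKM in the KIT-labelled library and 37.9% in the THY1-labelled library. These are not shares of fragments: FPKM divides by length, so a short RNA takes a larger share of summed FPKM than of fragments. The share of fragments from Rpph1 is not given in the sources used here.

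Depth is not recorded in the tables, so a low-end measure was used: FPKM multiplied by transcript length in kilobases, at percentile 5 of single-transcript genes above 0. It was 2.74 in the KIT-labelled library and 0.427 in the THY1-labelled library, a ratio of 6.41, so a single fragment weighed several times more in the KIT-labelled library. The value of a gene divided by that measure is called low-end units below. It is a rough stand-in for a number of fragments, since the annotation behind the files is not given in the sources used here. Genes listed at 0 made up 33.2% of the table in the KIT-labelled library and 24.2% in the THY1-labelled library.

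Markers of several cell types also differed between the 2 libraries. Their counts of genes at least 2-fold apart are to be read against all genes that reached 1 FPKM in at least 1 library. Of those, 39.5% were higher in the KIT-labelled library and 41.1% in the THY1-labelled library. The marker lists are short, and counts near these shares show nothing particular to a cell type. Of 8 Leydig cell genes in the table, 7 were at least 2-fold higher in the THY1-labelled library and 0 in the KIT-labelled library, with sums of 189 FPKM in the KIT-labelled library and 12931 FPKM in the THY1-labelled library, and Hsd3b6 and Hsd17b3 were listed at 0 in the KIT-labelled library. Pachytene spermatocyte genes summed to 179 FPKM in the KIT-labelled library and 7642 FPKM in the THY1-labelled library, with 1 of 9 higher in the KIT-labelled library and 8 of 9 in the THY1-labelled library. The general germ cell genes summed to 74.4 and 1211 FPKM (KIT-labelled first), with 1 of 6 higher in the KIT-labelled library and 5 in the THY1-labelled library. Sertoli genes summed to 37.9 and 1248 FPKM, but 4 of 8 were higher in the KIT-labelled library and 3 in the THY1-labelled library, and Clu (848 FPKM) and Vim (375 FPKM) made up most of the second sum. Peritubular and stromal genes summed to 238 and 1531 FPKM, with 4 of 10 higher in the KIT-labelled library and 6 in the THY1-labelled library. Macrophage genes summed to 260 and 965 FPKM, of which Aif1 alone gave 880 in the THY1-labelled library, and 4 of 9 were higher in the KIT-labelled library and 3 in the THY1-labelled library. Genes of undifferentiated spermatogonia summed to 181 FPKM in the KIT-labelled library and 9.38 FPKM in the THY1-labelled library, with 4 of 5 higher in the KIT-labelled library and 1 in the THY1-labelled library, although Zbtb16 and Lin28a were listed at 0 in both. Differentiating spermatogonia genes summed to 11.7 and 100.5 FPKM (0 of 6 higher in the KIT-labelled library and 5 in the THY1-labelled library), and spermatid genes to 4926 and 1112 FPKM (5 of 9 and 4 of 9), again KIT-labelled first. Endothelial genes summed to 78.5 and 12.4 FPKM (4 of 6 and 2 of 6) and T lymphocyte genes to 51.8 and 14.7 FPKM (4 of 6 and 1 of 6), in the same order. The part of these cells in the pathway values was not tested, and fewer cells of a type cannot be told apart from less RNA per cell.

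Pathway genes differed in both directions. Where a gene had to reach 1 FPKM in at least 1 library, 29 of the 35 genes could be compared on the log2(FPKM + 1) scale, which understates the change of low genes. Of these, 11 were at least 2-fold higher in the KIT-labelled library (37.9%, against 39.5% of the 15573 genes compared in the whole tables), 12 were at least 2-fold higher in the THY1-labelled library (41.4%, against 41.1%), and 6 lay within 2-fold. Both shares are close to those of all genes, so these counts show nothing particular to the pathway. Of the 12 genes higher in the THY1-labelled library, 7 were listed at 0 in the KIT-labelled library, while 0 of the 11 higher in the KIT-labelled library were listed at 0 in the THY1-labelled library. Over the whole tables, too, genes at 0 were more frequent in the KIT-labelled library (33.2%) than in the THY1-labelled library (24.2%). The contrast is therefore not read as a trait of the pathway. With the libraries scaled to a median ratio of 1, the count higher in the KIT-labelled library was 7, and the share of all genes there was 33.3%. Over genes above 0 in both libraries the count higher in the THY1-labelled library was 5 of 22, and the share of all such genes was 33.9%, against 41.1% without that condition. The share of all genes higher in the KIT-labelled library was 41.5% with that condition and 39.5% without it. By role among these 29 genes, ligands were mostly higher in the KIT-labelled library, and receptors and Smads more often in the THY1-labelled library, a difference between roles that was not tested. Acvr2a and Id2 were the members at 10 FPKM or more in both libraries.

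**Figure D1:**
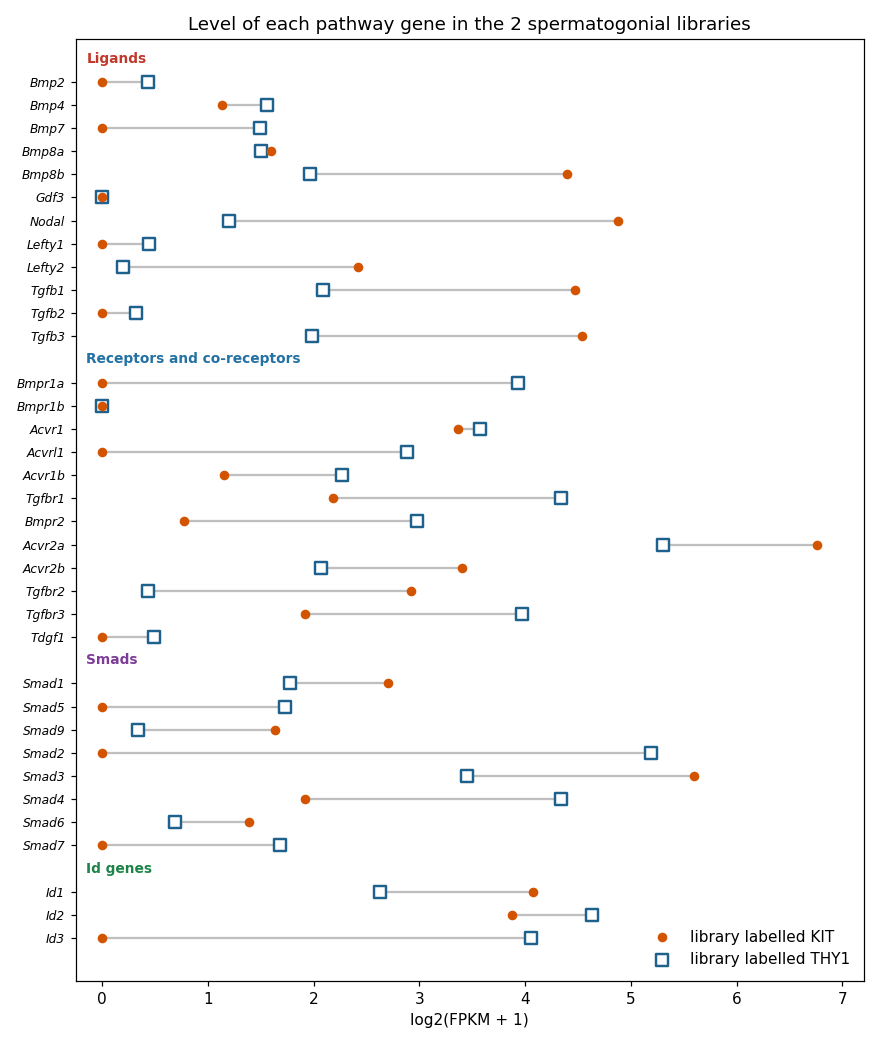
Level of the 35 pathway genes as log2(FPKM + 1), with filled circles for the KIT-labelled library and open squares for the THY1-labelled library, 1 library each. Nodal, Bmp8b, Tgfb1 and Tgfb3 lie to the right in the KIT-labelled library, while Bmpr1a, Smad2 and Id3 are listed at 0 there.

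**Figure D2:**
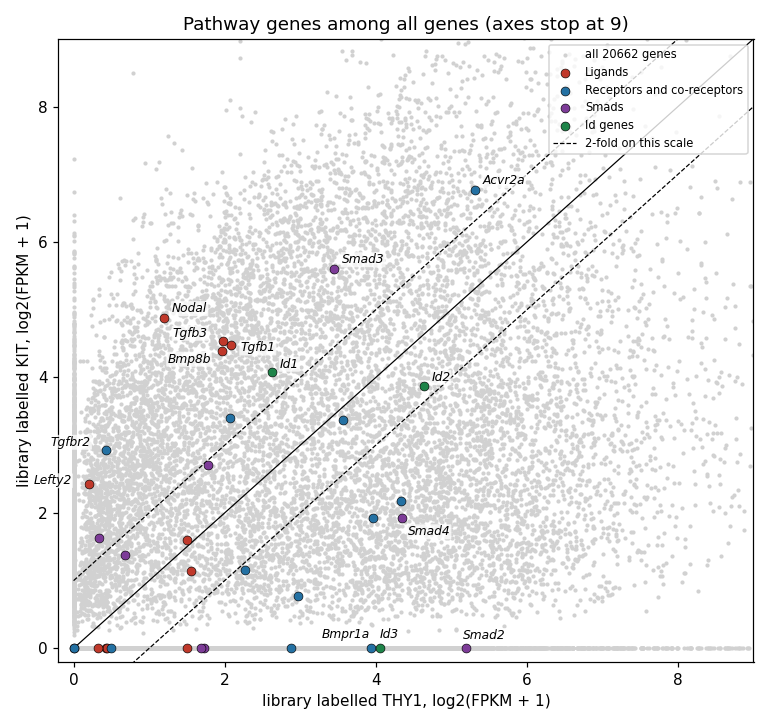
All 20662 genes (grey) and the 35 pathway genes (coloured by role) on log2(FPKM + 1), with the THY1-labelled library across and the KIT-labelled library up; solid and dashed lines mark equal values and a 2-fold difference. The pathway genes are spread over both sides, with 11 above the upper dashed line and 12 below the lower one among those that reach 1 FPKM in either library.

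Ligands made up the role with the largest share of genes higher in the KIT-labelled library. Of 12 ligand genes, 8 could be compared, of which 5 (62.5%, against 39.5% of all genes compared) were at least 2-fold higher in the KIT-labelled library and 1 (12.5%, against 41.1%) in the THY1-labelled library, with a median difference of 2.31 (KIT-labelled minus THY1-labelled, log2) against -0.0026 for all genes compared. Summed over all 12, ligand RNA came to 99.4 FPKM in the KIT-labelled library and 17.1 FPKM in the THY1-labelled library.

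Nodal, the ligand that patterns the early embryo through activin-type receptors, was the most abundant of these 12 ligands in the KIT-labelled library. It stood at 28.3 FPKM in the KIT-labelled library and 1.30 FPKM in the THY1-labelled library, a ratio of 21.8. Among genes above 0, it ranked at percentile 78.3 in the KIT-labelled library and at percentile 21.6 in the THY1-labelled library. Its value corresponds to 21.7 low-end units in the KIT-labelled library and 6.39 in the THY1-labelled library. The RefSeq window around its start site (250 bases before to 50 after, GRCm38.p6, chr10:61417722-61418021, plus strand) is shown because Nodal had the largest difference of these 12 ligands, and of the windows shown it is the one with neither of the Smad-type motifs described below:
Nodal: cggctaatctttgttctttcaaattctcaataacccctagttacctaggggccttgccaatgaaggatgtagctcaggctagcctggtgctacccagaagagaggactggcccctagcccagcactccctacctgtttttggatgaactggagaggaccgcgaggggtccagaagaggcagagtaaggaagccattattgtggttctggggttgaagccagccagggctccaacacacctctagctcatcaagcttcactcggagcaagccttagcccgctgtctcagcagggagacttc

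Lefty1, Lefty2, Tdgf1 and Gdf3, which also belong to the Nodal arm, were low in both libraries. Lefty2, a secreted Nodal antagonist, was at 4.36 FPKM in the KIT-labelled library and 0.148 FPKM in the THY1-labelled library, which corresponds to 3.95 and 0.856 low-end units, so both values rest on very little. Lefty1, the other Lefty antagonist, was listed at 0 FPKM in the KIT-labelled library and at 0.355 FPKM in the THY1-labelled library. Lefty1 and Lefty2 share 91.9% of the bases over 1153 aligned bases of their longest GENCODE transcripts, and reads from the shared stretches could be assigned to either. The co-receptor Tdgf1 was listed at 0 FPKM in the KIT-labelled library and at 0.405 FPKM in the THY1-labelled library. Gdf3, a Nodal-like ligand of pluripotent cells, was listed at 0 in both. Nodal and Lefty2 were thus the Nodal-arm ligands at or above 1 FPKM in either library.

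Both abundant TGF-beta ligands were higher in the KIT-labelled library. Tgfb1 was at 21.2 FPKM in the KIT-labelled library and 3.24 FPKM in the THY1-labelled library, a ratio of 6.55, and Tgfb3 was at 22.2 FPKM in the KIT-labelled library and 2.94 FPKM in the THY1-labelled library, a ratio of 7.53. Tgfb2 was listed at 0 FPKM in the KIT-labelled library and at 0.248 FPKM in the THY1-labelled library. Bmp8b, a germ cell BMP, followed the same pattern at 20.1 FPKM in the KIT-labelled library and 2.91 FPKM in the THY1-labelled library, a ratio of 6.90. In low-end units, Tgfb1 was at 16.9 and 16.5, Tgfb3 at 27.4 and 23.3, and Bmp8b at 21.6 and 20.1 (KIT-labelled first). The 3 ratios are similar in size to the 6.41-fold difference in the low-end measure, and a part of depth in them was not tested.

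The remaining BMP ligands among the 12 were low in both libraries. Bmp8a, the close paralogue of Bmp8b, was at 2.02 FPKM in the KIT-labelled library and 1.83 FPKM in the THY1-labelled library, within 2-fold. The longest transcripts of Bmp8a and Bmp8b are 86.5% identical over 1435 aligned bases, and 8.91% of the 50-base windows of Bmp8a occur unchanged in Bmp8b, so part of their reads may be exchanged. Bmp4 was at 1.20 FPKM in the KIT-labelled library and 1.94 FPKM in the THY1-labelled library, with only 0.903 low-end units behind the first value. Bmp7 was listed at 0 FPKM in the KIT-labelled library and at 1.82 FPKM in the THY1-labelled library, a level that would equal 2.44 low-end units in the KIT-labelled library. Bmp2 was listed at 0 FPKM in the KIT-labelled library and at 0.345 FPKM in the THY1-labelled library. None of these 12 ligands reached 5 FPKM in the THY1-labelled library, where the highest of them was Tgfb1.

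**Figure D3:**
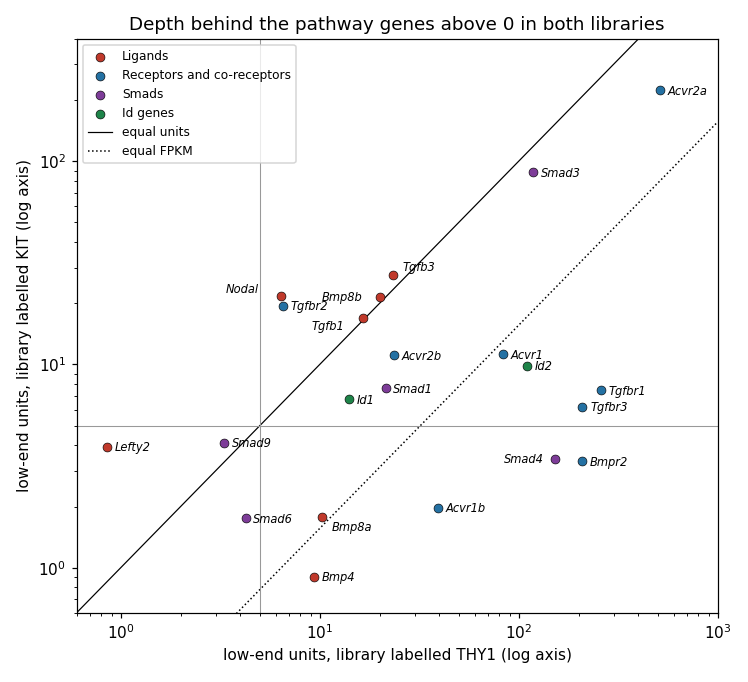
Low-end units of the 22 pathway genes above 0 in both libraries, on log axes, with the THY1-labelled library across and the KIT-labelled library up; the solid line marks equal units, the dotted line equal FPKM, and grey lines 5 units. Tgfb1, Tgfb3 and Bmp8b lie on or close to the line of equal units, Nodal and Tgfbr2 lie above it, and Smad4, Bmpr2, Tgfbr1 and Tgfbr3 lie below the line of equal FPKM.

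Most of the member receptors that could be compared were higher in the THY1-labelled library, unlike the other receptors and co-receptors read further below. Tgfbr2 and the activin type II receptors Acvr2a and Acvr2b were the members higher in the KIT-labelled library. Of 12 receptors and co-receptors, 10 could be compared: 3 (30%, against 39.5% of all genes compared) were at least 2-fold higher in the KIT-labelled library and 6 (60%, against 41.1%) in the THY1-labelled library, and the median difference was -1.58. Of the 5 type I receptors among these 12 that were above 0 in either library, 4 were at least 2-fold higher in the THY1-labelled library and 1, Acvr1, was level.

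Bmpr1a, the main type I receptor for BMP2 and BMP4, was listed at 0 FPKM in the KIT-labelled library and at 14.3 FPKM in the THY1-labelled library. That level would equal 31.1 low-end units in the KIT-labelled library. Acvrl1, an endothelial type I receptor, was listed at 0 FPKM in the KIT-labelled library and at 6.36 FPKM in the THY1-labelled library (8.47 such units). Tgfbr1, the type I receptor for TGF-beta, was at 3.54 FPKM in the KIT-labelled library and 19.2 FPKM in the THY1-labelled library, a ratio of 5.42 in favour of the THY1-labelled library. Acvr1b, the activin and Nodal type I receptor, was at 1.22 FPKM in the KIT-labelled library and 3.81 FPKM in the THY1-labelled library. Only 1.97 low-end units lie behind the first of these values. On the log2(FPKM + 1) scale Acvr1b came within 2-fold at -0.77 with the same upper quartile and at -0.99 with the same sum without Rpph1. Acvr1, a BMP type I receptor, was nearly level at 9.32 FPKM in the KIT-labelled library and 10.9 FPKM in the THY1-labelled library. It supplied 66.2% of the FPKM of the member type I receptors in the KIT-labelled library and 19.9% in the THY1-labelled library. Bmpr1b was listed at 0 in both.

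Acvr2a, the type II receptor for activins that also serves BMPs, was the most abundant of the 35 genes in both libraries. It stood at 107.6 FPKM in the KIT-labelled library and 38.6 FPKM in the THY1-labelled library, a ratio of 2.79, at percentiles 94.6 and 81.0 of genes above 0 (KIT-labelled first). Its share of the FPKM of the receptors and co-receptors among these 35 genes was 76.1% in the KIT-labelled library and 32.6% in the THY1-labelled library. Acvr2b, its close relative, was at 9.58 FPKM in the KIT-labelled library and 3.19 FPKM in the THY1-labelled library, a ratio of 3.01. With the libraries scaled to a median ratio of 1, the differences were 0.90 (Acvr2a) and 0.84 (Acvr2b) on the log2(FPKM + 1) scale. Both lie just inside 2-fold on that scale.

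The other type II receptors split. Tgfbr2, which binds TGF-beta, was at 6.58 FPKM in the KIT-labelled library and 0.345 FPKM in the THY1-labelled library, a ratio of 19.1, with 19.5 low-end units in the KIT-labelled library and 6.55 in the THY1-labelled library. Tgfbr2 and its type I partner Tgfbr1 therefore differed in opposite directions. Bmpr2, the BMP-specific type II receptor, was at 0.707 FPKM in the KIT-labelled library and 6.86 FPKM in the THY1-labelled library, a ratio of 9.71 in favour of the THY1-labelled library. Its value in the KIT-labelled library rests on 3.33 low-end units, so the size of this ratio is uncertain. Tgfbr3 (betaglycan), a co-receptor that presents TGF-beta and inhibin, was at 2.78 FPKM in the KIT-labelled library and 14.7 FPKM in the THY1-labelled library, a ratio of 5.27 in favour of the THY1-labelled library.

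**Figure D4:**
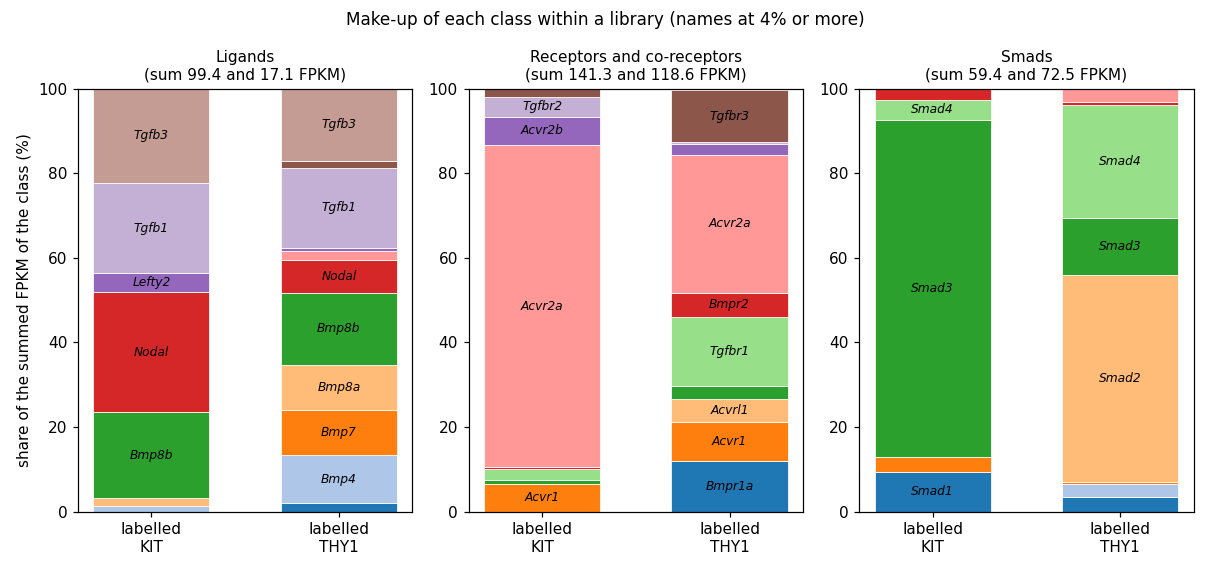
Share of each gene in the summed FPKM of its class (%), within the KIT-labelled library (left bar) and the THY1-labelled library (right bar), 1 library each; these shares do not depend on scaling between libraries. Acvr2a takes 76.1% of the FPKM of the member receptors and co-receptors in the KIT-labelled library and 32.6% in the THY1-labelled library. Smad3 takes 79.8% of Smad FPKM in the KIT-labelled library and 13.6% in the THY1-labelled library.

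Start-site windows of the members were searched on both strands for a pair of letter strings tied to Smad binding: GGCGCC, a GC-rich element of BMP-responsive genes that reads the same on both strands, and GTCTG, a Smad box whose opposite strand reads CAGAC. The strings can overlap by 1 base at an end, and no matches overlap in the windows shown. RefSeq windows (GRCm38.p6, 300 bases) were at hand for 23 of the 35 genes. GGCGCC occurred in 7 of these 23 genes (8 of their 28 windows, 28.6%), against 11.9% of all 32851 windows, which are not limited to the genes compared here. By direction, 5 of the 6 members higher in the THY1-labelled library that had a window held it, namely Bmpr1a, Acvr1b, Tgfbr1, Bmpr2 and Smad5, and 1 of the 8 members higher in the KIT-labelled library did, namely Smad9. Among all compared genes with a window, the same string stood in 23.6% of those higher in the THY1-labelled library. It stood in 18.8% of those higher in the KIT-labelled library and in 23.8% of those within 2-fold. These shares lie above the share of all windows, which is therefore a low baseline for the members. GTCTG occurred in 12 of the 28 member windows (42.9%), against 49.6% of all windows. By direction, it stood in 4 of the 8 members higher in the KIT-labelled library, against 53.9% of all such genes. It stood in 3 of the 6 members higher in the THY1-labelled library, against 51.8%, so GTCTG showed no contrast by direction. A match describes letters and is not evidence of a bound site.

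Both receptors below were listed at 0 or under 1 FPKM in the KIT-labelled library, and both windows hold GGCGCC, shown in capitals together with GTCTG or CAGAC where these occur. The Bmpr1a window is chr14:34502497-34502796, minus strand, and the Bmpr2 window is chr1:59764029-59764328, plus strand.
Bmpr1a: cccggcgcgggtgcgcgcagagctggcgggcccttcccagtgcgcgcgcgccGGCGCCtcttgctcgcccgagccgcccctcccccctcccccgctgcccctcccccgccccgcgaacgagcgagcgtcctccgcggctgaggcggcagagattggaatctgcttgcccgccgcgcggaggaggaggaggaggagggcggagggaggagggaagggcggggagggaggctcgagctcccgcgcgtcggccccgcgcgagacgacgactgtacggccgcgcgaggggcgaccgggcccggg
Bmpr2: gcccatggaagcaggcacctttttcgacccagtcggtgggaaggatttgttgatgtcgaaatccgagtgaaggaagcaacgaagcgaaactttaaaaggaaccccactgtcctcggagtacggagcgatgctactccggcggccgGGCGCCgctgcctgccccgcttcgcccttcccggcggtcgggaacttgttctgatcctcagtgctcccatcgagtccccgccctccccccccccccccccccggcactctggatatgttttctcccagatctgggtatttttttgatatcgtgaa

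The Smads of the TGF-beta arm differed in opposite directions. Smad3 was at 47.4 FPKM in the KIT-labelled library and 9.89 FPKM in the THY1-labelled library, a ratio of 4.79, with 88.2 low-end units in the KIT-labelled library and 118 in the THY1-labelled library. Smad2, the other Smad of the TGF-beta, activin and Nodal arm, was listed at 0 FPKM in the KIT-labelled library and at 35.5 FPKM in the THY1-labelled library, the largest difference of any member. At its level in the THY1-labelled library, Smad2 would have given 105 low-end units in the KIT-labelled library. A listed 0 can also be a failed estimate, because Ppia, which nearly every cell uses, is listed at 0 in both libraries (singled out after its value was seen). Together, Smad2 and Smad3 came to 47.4 FPKM in the KIT-labelled library and 45.4 FPKM in the THY1-labelled library. They made up 86.1% of the FPKM of the receptor-regulated Smads in the KIT-labelled library and 90.1% in the THY1-labelled library.

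The BMP-arm Smads were all low. Smad1 was at 5.53 FPKM in the KIT-labelled library and 2.43 FPKM in the THY1-labelled library, a difference of 0.93 on the log2(FPKM + 1) scale that lies just inside 2-fold. Smad5 was listed at 0 FPKM in the KIT-labelled library and at 2.30 FPKM in the THY1-labelled library, and Smad9 was at 2.10 FPKM in the KIT-labelled library and 0.262 FPKM in the THY1-labelled library. Summed, the BMP-arm Smads came to 7.63 FPKM in the KIT-labelled library and 4.99 FPKM in the THY1-labelled library. Smad9 had 4.12 low-end units in the KIT-labelled library and 3.30 in the THY1-labelled library.

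Smad4, the common partner of both arms, was at 2.78 FPKM in the KIT-labelled library and 19.3 FPKM in the THY1-labelled library, a ratio of 6.94 in favour of the THY1-labelled library. The first of these values rests on 3.44 low-end units, so the size of the ratio is uncertain. The inhibitory Smad7 was listed at 0 FPKM in the KIT-labelled library and at 2.21 FPKM in the THY1-labelled library, a level that would equal 3.46 low-end units in the KIT-labelled library. Smad6, which inhibits the BMP arm, was at 1.61 FPKM in the KIT-labelled library and 0.609 FPKM in the THY1-labelled library. This is a plain ratio of 2.65, but within 2-fold on the log2(FPKM + 1) scale. Over all 8 Smads, 2 (25%, against 39.5% of all genes compared) were at least 2-fold higher in the KIT-labelled library and 4 (50%, against 41.1%) in the THY1-labelled library, with a median difference of -0.49. The first count was 4 with a pseudocount of 0.1 or the same upper quartile, since Smad1 and Smad6 then pass 2-fold, and over Smads above 0 in both libraries the median was 0.93.

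The 3 Id genes differed from each other. Id1 was at 15.9 FPKM in the KIT-labelled library and 5.18 FPKM in the THY1-labelled library, a ratio of 3.06. Under median-ratio scaling its difference was 0.92 on the log2(FPKM + 1) scale, just inside 2-fold on that scale. Id2 was at 13.7 FPKM in the KIT-labelled library and 23.8 FPKM in the THY1-labelled library, within 2-fold. Id3 was listed at 0 FPKM in the KIT-labelled library and at 15.6 FPKM in the THY1-labelled library, a level that would equal 7.28 low-end units in the KIT-labelled library. The Id genes are short, so the same FPKM rests on fewer fragments than for a Smad: Id1 had 6.73 low-end units in the KIT-labelled library and 14.1 in the THY1-labelled library.

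The windows of Id2 and Id3 are shown because these BMP targets stood apart in level, Id2 within 2-fold and Id3 listed at 0 in the KIT-labelled library, and in the string they hold: GGCGCC at position 20 of the Id2 window, and GTCTG or its opposite strand at positions 84 and 183 of the Id3 window (capitals, counted from 1 at the 5′ end). The Id2 window is chr12:25096043-25096342, minus strand, and the Id3 window is chr4:136143572-136143871, plus strand.
Id2: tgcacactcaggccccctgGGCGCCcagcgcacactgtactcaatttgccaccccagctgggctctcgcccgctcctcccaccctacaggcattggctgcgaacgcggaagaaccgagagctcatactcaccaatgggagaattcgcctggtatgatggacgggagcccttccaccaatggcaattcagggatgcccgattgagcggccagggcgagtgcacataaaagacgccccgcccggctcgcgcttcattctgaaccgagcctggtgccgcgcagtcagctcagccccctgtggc
Id3: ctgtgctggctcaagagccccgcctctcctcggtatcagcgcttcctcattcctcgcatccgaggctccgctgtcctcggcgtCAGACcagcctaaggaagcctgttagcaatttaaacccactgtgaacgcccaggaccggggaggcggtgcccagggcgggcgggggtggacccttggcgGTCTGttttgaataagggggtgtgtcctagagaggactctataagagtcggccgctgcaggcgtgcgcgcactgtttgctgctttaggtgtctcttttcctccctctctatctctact

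A further 84 genes of the pathway, listed by role, were read in the same way. Of the 60 that could be compared, 29 (48.3%, against 39.5% of all genes compared) were at least 2-fold higher in the KIT-labelled library and 19 (31.7%, against 41.1%) in the THY1-labelled library, with a median difference of 0.87 against -0.0026 for all genes. The counts of the 5 lists below are to be read against the same shares of all genes. The other ligands leaned the same way as the ligands above, with 7 of 10 higher in the KIT-labelled library and 1 in the THY1-labelled library. Bmp3, a BMP that antagonizes other BMPs, was at 58.6 FPKM in the KIT-labelled library and 2.74 FPKM in the THY1-labelled library, with 142 and 42.4 low-end units (KIT-labelled first). Anti-Müllerian hormone Amh was at 6.71 FPKM in the KIT-labelled library and 0.227 FPKM in the THY1-labelled library, Gdf5 at 6.22 and 0.251, and Gdf15 at 11.1 and 2.32 (KIT-labelled first). In the same order, Amh had 4.10 and 0.887 low-end units and Gdf5 had 5.27 and 1.36, so these values rest on little.

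Other receptors and co-receptors were higher in the KIT-labelled library for 5 of 6 genes and in the THY1-labelled library for 1. They leaned against the member receptors, with a median difference of 1.87 against -1.58, so receptors as a whole had no common direction. Cfc1 (Cryptic), a Nodal co-receptor related to Tdgf1, was at 73.1 FPKM in the KIT-labelled library and 6.39 FPKM in the THY1-labelled library, a ratio of 11.4. The endothelial co-receptor Eng was at 14.3 FPKM in the KIT-labelled library and 1.78 FPKM in the THY1-labelled library, and Rgma, a BMP co-receptor, was at 13.6 and 3.06 FPKM, KIT-labelled first. Amhr2, the receptor for Amh in Sertoli and Leydig cells, was the exception at 7.60 FPKM in the KIT-labelled library and 41.2 FPKM in the THY1-labelled library. Amh is also one of the Sertoli markers and Eng one of the endothelial markers above.

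Extracellular antagonists and binding proteins were higher in the KIT-labelled library for 6 of 13 genes and in the THY1-labelled library for 4. The follistatin-like Fstl1 was at 67.1 FPKM in the KIT-labelled library and 2.83 FPKM in the THY1-labelled library. Ltbp2, of the latent TGF-beta binding protein family, was at 21.5 and 1.05 FPKM, and Lrrc32 (GARP), which tethers latent TGF-beta to cell surfaces, was at 15.8 and 0.704 FPKM, KIT-labelled first. Sost, best known as a bone Wnt antagonist, was at 12.4 FPKM in the KIT-labelled library and 0.241 FPKM in the THY1-labelled library, with only 1.17 low-end units behind the second value.

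Intracellular regulators leaned the other way, with 4 of 19 higher in the KIT-labelled library and 8 in the THY1-labelled library. Strap, a TGF-beta receptor binding protein that also assembles survival motor neuron complexes, was at 1.11 FPKM in the KIT-labelled library and 220 FPKM in the THY1-labelled library, with only 1.07 low-end units behind the first value. The phosphatase Ppm1a, which dephosphorylates Smad2 and Smad3, was at 7.88 FPKM in the KIT-labelled library and 99.8 FPKM in the THY1-labelled library. Zfyve9 (SARA), which presents Smad2 and Smad3 to the receptor, was at 3.87 and 36.0 FPKM, and its relative Zfyve16 at 1.30 and 20.2 FPKM, KIT-labelled first. The Zfyve16 value in the KIT-labelled library rests on 2.92 low-end units. The ubiquitin ligases Smurf1 and Smurf2, singled out after their values were seen, were level at 28.8 and 30.9 FPKM in the KIT-labelled library and 30.6 and 21.7 FPKM in the THY1-labelled library.

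Other target genes were split, 7 of 12 higher in the KIT-labelled library and 5 in the THY1-labelled library, with 0 within 2-fold. Msx2, a homeobox target of BMP signalling, was at 32.6 FPKM in the KIT-labelled library and 0.383 FPKM in the THY1-labelled library, a ratio of 85.2. Only 2.20 low-end units lie behind the Msx2 value in the THY1-labelled library, so the size of this ratio is uncertain. The TGF-beta targets Klf10 and Tgfbi were higher in the THY1-labelled library: Klf10 was at 1.01 FPKM in the KIT-labelled library and 21.3 FPKM in the THY1-labelled library, and Tgfbi at 1.13 and 18.2 FPKM. Their values in the KIT-labelled library rest on 1.13 (Klf10) and 1.12 (Tgfbi) low-end units. Another TGF-beta target, the cell cycle inhibitor Cdkn2b, singled out after its value was seen, was at 65.7 FPKM in the KIT-labelled library and 9.46 FPKM in the THY1-labelled library, a ratio of 6.95. In low-end units Cdkn2b was at 33.4 and 30.8, KIT-labelled first.

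**Figure D5:**
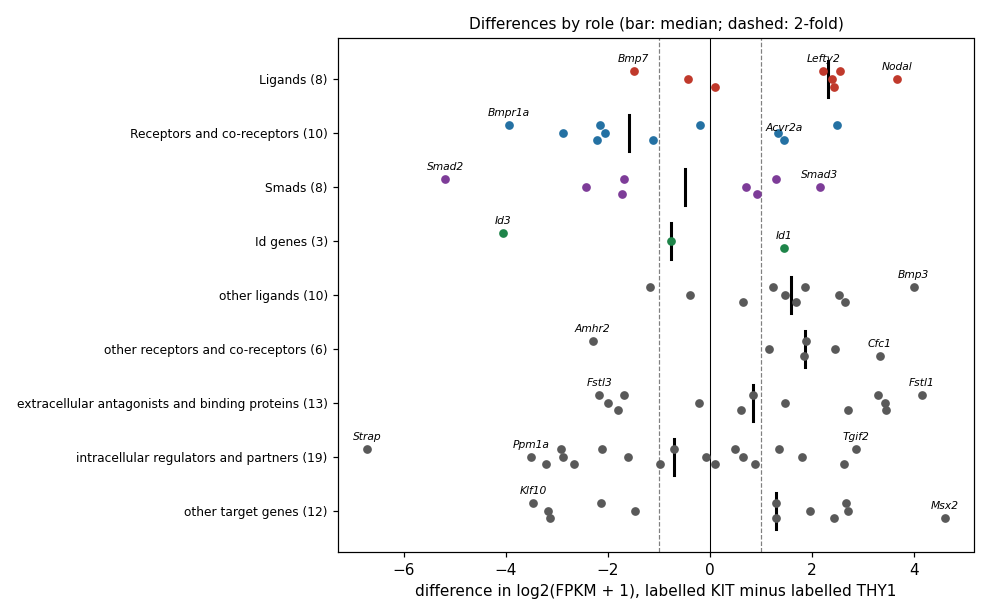
Difference in log2(FPKM + 1), KIT-labelled minus THY1-labelled, for the comparable pathway genes by role (coloured, first 4 lines) and for the other pathway genes (grey); each point is a gene, black bars are medians and dashed lines mark 2-fold. Medians are 2.31 for ligands, -1.58 for receptors, 1.59 for other ligands, 1.87 for other receptors and co-receptors and -0.71 for intracellular regulators.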

How the data were processed

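RNA of 2 spermatogonial samples was analysed, 1 library each, out of 13 in the series. Per the labels' protocols, total RNA was depleted of ribosomal RNA and made into directional libraries. The deposited values name no unit and were taken as FPKM, because the submitters' processing notes name Cufflinks 2.1.1 (with TopHat 1.4.1, CASAVA and mm9, without roles) and the sums differ. The sources used here do not give the annotation, the filters or how reads with several matches were handled, and such reads can be lost or shared between genes.

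Tables were tied to samples by the series record, and titles gave the groups. Differences were log2(FPKM + 1), KIT-labelled minus THY1-labelled, with a pseudocount of 1, a larger value of at least 1 FPKM and a size of 2-fold. Calls of 2-fold, also after scaling, are on that scale, so a low gene called within 2-fold can have a larger plain FPKM ratio. No test was possible. The calling step was run on simulated data without noise or listed zeros, made from well-expressed genes with planted changes. That run checks only that the rule is applied as stated, and not how reliable the calls are at low values. Transcript lengths came from GENCODE M21, which is on another build than mm9 and gave no coordinates. Low-end units used single-transcript genes over 1000 bases. Start-site windows are from RefSeq on GRCm38.p6.

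The members and lists were chosen with earlier results of these data known. All 35 members are named, and of the other pathway genes up to 4 per list with the largest difference and a larger value of at least 5 FPKM. A gene that this rule names is not reported here. Alternatives were a pseudocount of 0.1, 3 scalings, no filter, a minimum of 5 FPKM, genes above 0 in both libraries and, added after seeing the data, at least 5 low-end units. Computation was in Python 3.11.15 with biopython 1.88, pandas 2.3.3 and numpy 2.4.6.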

Additional observations from a re-analysis of the deposited data

How the results depend on the processing

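No paired analysis was possible because each spermatogonial group is 1 library. Scaling multiplied the KIT-labelled library and moved the median of all compared genes to -0.57 (median ratio of 1), 0.56 (same upper quartile) or 0.22 (same sum without Rpph1), against -0.0026 as deposited, and these shifts act on every value below. Of the 23 members at least 2-fold apart, 18 stayed so in the same direction under every setting in which they had a value. Acvr1b, Acvr2a, Acvr2b, Smad9 and Id1 came within 2-fold on the log2(FPKM + 1) scale under some scaling, and none reversed. The 18 include the 7 called members listed at 0 in the KIT-labelled library. Scaling that library leaves a 0 at 0, so those 7 could not move under it. Settings that only filter genes can drop a member but cannot change its call. With the median ratio scaled to 1, members higher in the KIT-labelled library numbered 7, receptors 1, Smads 1 and Id genes 0, Id genes higher in the THY1-labelled library numbered 2, and the Id median was -1.27. With the same upper quartile, Smads higher in the KIT-labelled library numbered 4, and the medians were 0.33 (members), 2.83 (ligands) and -0.21 (Id genes). The member median was 0.0017 with the same sum without Rpph1, against -0.20 as reported. With a pseudocount of 0.1, 4 Smads were higher in the KIT-labelled library. Without a filter, the medians were 0.046 (ligands), -0.80 (receptors) and 0 (other pathway genes), against 0 for all genes. At a minimum of 5 FPKM the member median was 0.36, against -0.40 for all genes. There, 1 Smad was higher in the KIT-labelled library and 2 in the THY1-labelled library, and 0 ligands were higher in the THY1-labelled library. Over genes above 0 in both libraries, which drops by construction the members listed at 0 in the KIT-labelled library, 5 members, 0 ligands, 1 Smad and 0 Id genes were higher in the THY1-labelled library. The medians were then 1.11 (members), -0.66 (receptors), 0.93 (Smads) and 0.35 (Id genes), against 0.42 for all such genes. With at least 5 low-end units, 9 of 25 members were higher in the KIT-labelled library and 12 in the THY1-labelled library. The shares of all such genes were 34.1% and 46.7%, KIT-labelled first, and their median was -0.74. The cause of these shifts was otherwise not tested. Depth limits the low values: of the 22 members above 0 in the KIT-labelled library, 8 had under 5 low-end units there.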
